A study of Mus musculus with 6 samples.

Results

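The 35 genes examined here act in glycolysis or in the response to low oxygen. They comprise transporters of glucose and lactate, the enzymes that carry glucose to lactate, regulators of that flow, and hypoxia-inducible factor (HIF) with its oxygen sensors and some of its targets. Members were the single-gene probe sets of these symbols, and the brightest of them on average stood for its gene. This gave 32 measured members among the 17097 genes that the array names. *Gpi1*, *Pgam1* and *Eno1* had no probe set naming them alone and are not measured here. Cancer cells called full epithelial were compared with those called EpCAM+ plastic, both from mouse cutaneous squamous cell carcinoma (cSCC), with 3 arrays per group.

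Glycolysis splits glucose into pyruvate in the cytosol, and lactate dehydrogenase can turn the pyruvate into lactate, which leaves the cell through monocarboxylate transporters. When oxygen is low, prolyl hydroxylases no longer mark the HIF alpha subunit for destruction, and HIF binds hypoxia response elements near genes for glucose uptake, glycolysis, pH control and mitophagy. Squamous carcinomas are known for avid glucose uptake and for hypoxic zones.

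Full epithelial cells were α6-integrin+ CD45- EpCAM+ cells sorted from well-differentiated tumors (WD-SCCs), and EpCAM+ plastic cells were sorted by the same gate from moderately to poorly differentiated tumors (MD/PD-SCCs), which also hold mesenchymal EpCAM- cancer cells. Each array came from an independent tumor. In both groups the cancer cells descend from tumors of K14-HPV16 Tg/+ mice, whose viral oncogenes are driven by a keratin promoter of basal keratinocytes, and these tumors arose spontaneously or under DMBA/TPA. The study's methods state that its cancer cells carried GFP, that endothelial cells were depleted with CD31 before sorting, and that tumors were grown in the back skin of young adult male mice. WD-SCCs were raised by engrafting few cells of the OT14 lineage into nude mice, which lack most T cells, and MD/PD-SCCs arose on serial engraftment, so the groups also differ in their number of passages. The paper traces the WD-SCCs of its model to a putative epithelial-like cancer stem cell, and the MD/PD-SCCs to regrafted WD-SCCs. Neither the labels nor the methods say whether the arrayed tumors of 1 group share such an ancestor. The p-values measure the spread between these tumors. In sorted bulk samples, fewer cells of a type and less RNA per cell cannot be told apart.

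The values are RMA-normalized log2 intensities, for which a difference of 1 is a doubling of signal, and differences are EpCAM+ plastic minus full epithelial. Array medians lay between 4.85 and 4.90, and arrays correlated at 0.979 to 0.990 within and at 0.954 to 0.976 between groups. Probe sets for sequences without a target had a 90th percentile of 5.71, used here as the background level, and 27 of the 32 members had both group means above it. *Epcam* and *Itga6* encode the proteins that the sort selected for, and *Krt5*, *Krt14*, *Cdh1* and *Trp63* are further epithelial and keratinocyte markers. All 6 had means above background in both groups, and none of the 6 passed the test. *Ptprc*, which encodes CD45, lay at 2.90 to 3.00 in all 6 arrays, below the 3.37 that was the midpoint of the probe sets without a target.

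Because HIF reads a short sequence, the promoters of the members were searched for the core of the hypoxia response element. The letters searched were ACGTG on both strands, so that CACGT on the printed strand also counts, and the search covered the 250 bases before each transcription start in RefSeq (GRCm38.p6). Such a match was present in 16.6% of all 32851 windows, in 19.5% of the windows of array genes and in 20 of the 40 windows of members (50.0%). By gene, it was present in 17 of the 29 members with an entry (58.6%) against 22.4% of the array genes with an entry. The list was drawn up to include HIF targets, so these shares are not independent of how the members were chosen. *Slc2a3*, *Bnip3l* and *Ndrg1* had no entry. In 6 of the 40 windows the match lay within CACGTG, the E-box that MYC and other factors also read, which matches on both strands. A match is a description and not a site that was tested. Windows of 3 genes on which the results turn are shown because each holds a match, with *Hk2* and *Ddit4* lower in plastic cells and *Car9* higher there on average without passing the test. The *Hk2* window is chr6:82774455-82774704 on the minus strand with matches at 226 and 52 bases before the start. That of *Ddit4* is chr10:59951771-59952020 on the minus strand with a match at 187 bases, and that of *Car9* is chr4:43506776-43507025 on the plus strand with a match at 18 bases. All are written 5′ to 3′ in the direction of the gene, with the matches in capitals.
Hk2: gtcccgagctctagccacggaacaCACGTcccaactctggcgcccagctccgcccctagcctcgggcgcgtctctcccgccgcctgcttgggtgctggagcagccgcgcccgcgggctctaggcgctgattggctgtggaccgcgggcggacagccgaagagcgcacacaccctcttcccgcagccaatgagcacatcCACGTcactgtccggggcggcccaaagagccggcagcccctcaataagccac
Ddit4: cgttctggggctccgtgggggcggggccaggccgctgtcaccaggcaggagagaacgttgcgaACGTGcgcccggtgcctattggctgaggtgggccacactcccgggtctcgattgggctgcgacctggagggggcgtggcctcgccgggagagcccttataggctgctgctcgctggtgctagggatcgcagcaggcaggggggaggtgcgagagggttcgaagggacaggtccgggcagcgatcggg
Car9: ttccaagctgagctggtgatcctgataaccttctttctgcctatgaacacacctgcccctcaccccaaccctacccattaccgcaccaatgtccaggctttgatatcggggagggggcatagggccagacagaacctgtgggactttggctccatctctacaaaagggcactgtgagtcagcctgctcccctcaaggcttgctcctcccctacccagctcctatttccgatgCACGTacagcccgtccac
The *Car12* window held no match, which says only that these letters are not in that window.

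Of the 32 members, none was higher and 3 were lower in EpCAM+ plastic cells at an adjusted p under 0.05 by limma over all 45141 probe sets. The 3 were *Hk2*, the hexokinase that traps glucose in growing cells, *Ddit4*, an inhibitor of the growth kinase mTOR, and *Car12*, a carbonic anhydrase of the cell surface. Among all 17097 genes, 5.30% were higher and 1.91% were lower by the same rule. The median change of the members was -0.05, beside -0.02 over all genes, with 15 members above and 17 below 0. Differences ran from -1.23 for *Car12* to 1.58 for *Car9*. At an unadjusted p under 0.05, 3 members were higher and 7 lower, against 14.9% and 9.01% of all genes. No overlap between groups was seen for 3 members with higher and 8 with lower values in plastic cells, against 15.4% and 13.7% of all genes.

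**Figure D1:**
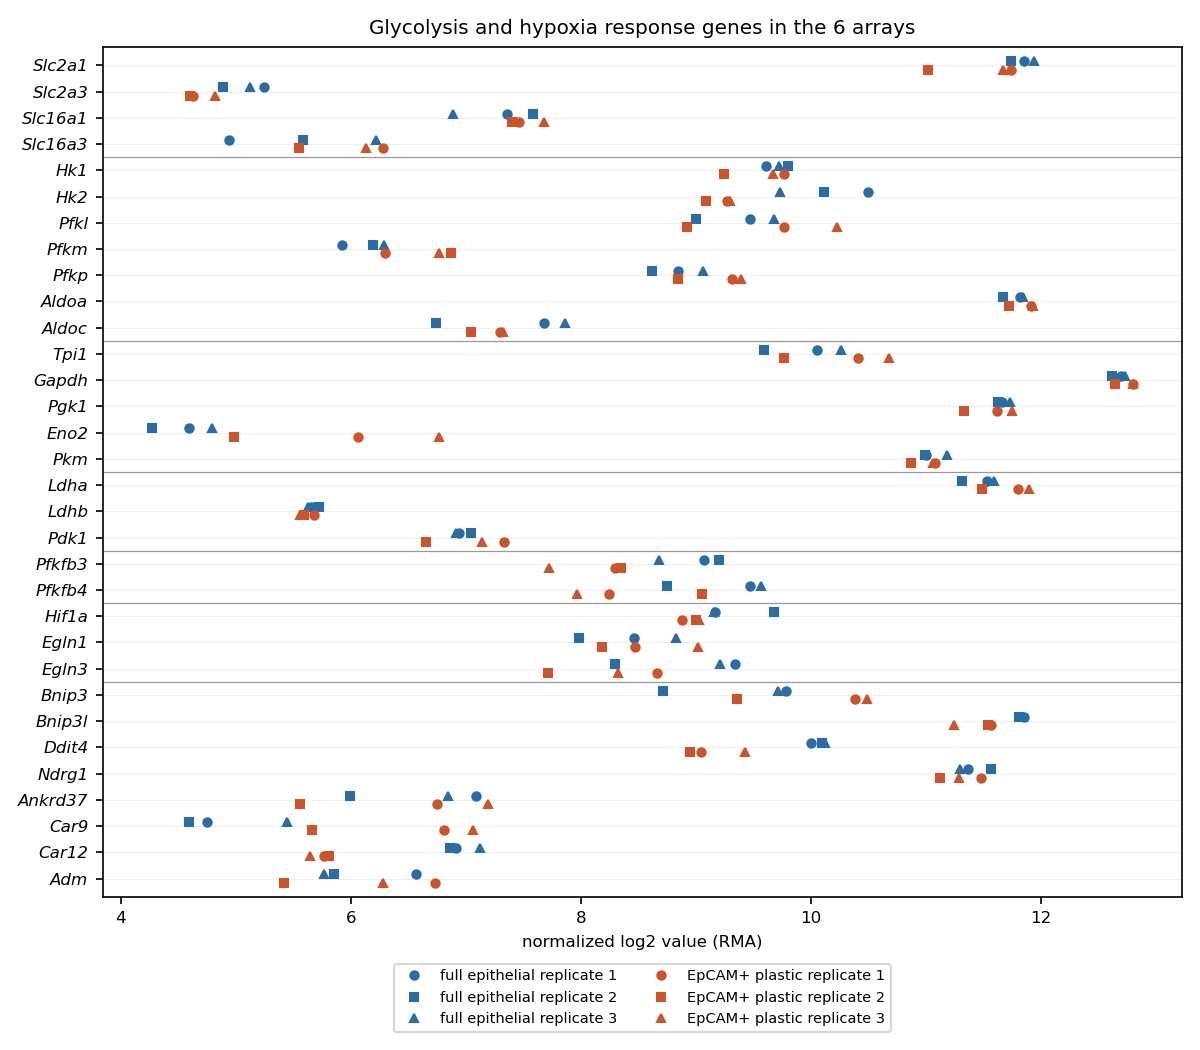
Normalized log2 value (RMA) of each of the 32 measured genes, by role from glucose transport at the top to hypoxia effectors at the bottom, in the 3 full epithelial (blue) and 3 EpCAM+ plastic (orange) arrays, with 1 symbol shape per replicate number. *Car12* and *Ddit4* show separate groups with plastic arrays lower, while *Car9* and *Eno2* show plastic arrays higher and widely spread.

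**Figure D2:**
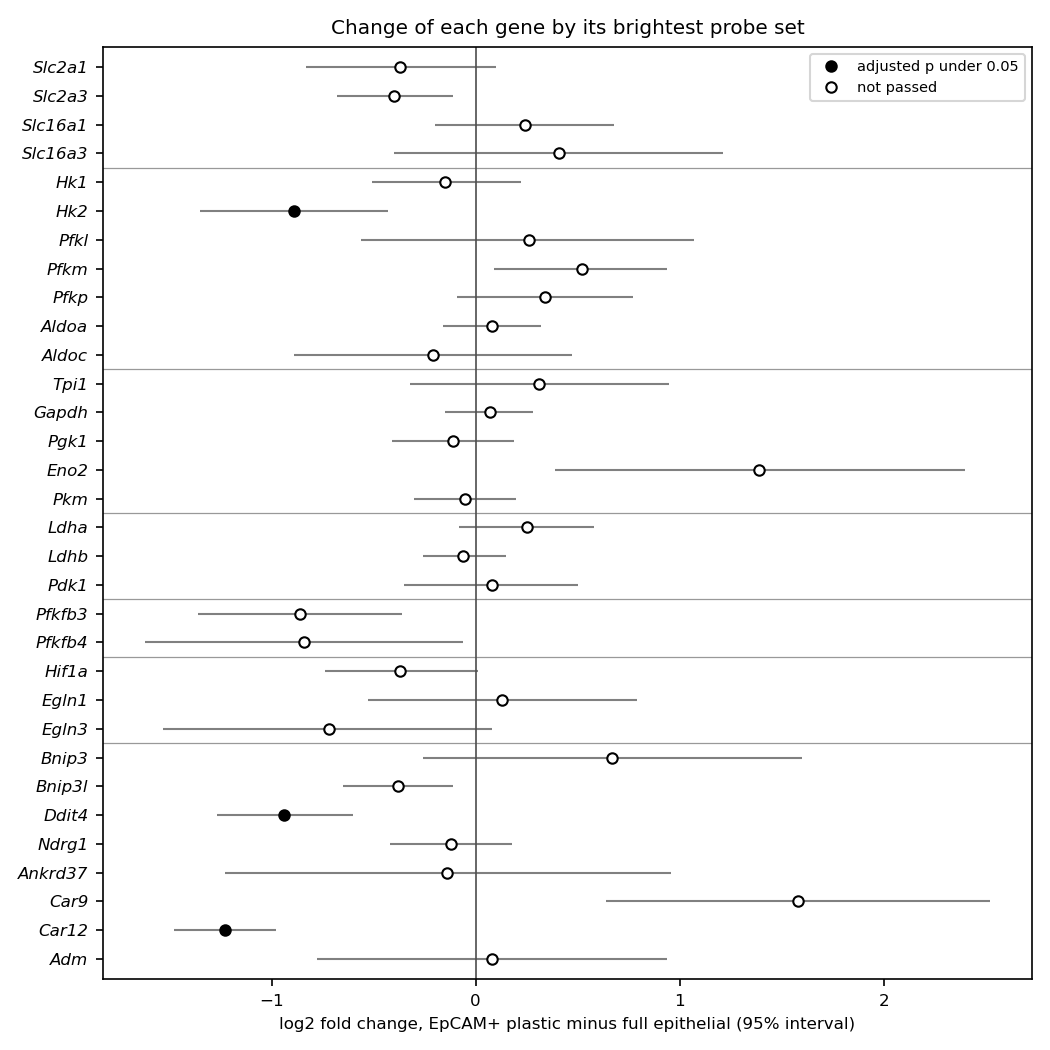
Log2 fold change, EpCAM+ plastic minus full epithelial, of each gene by its brightest probe set, with its 95% interval from limma. Filled points mark the 3 genes with an adjusted p under 0.05, and most other intervals include 0.

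Among the transporters, no member passed the test. *Slc2a1* encodes GLUT1, the main glucose importer of squamous epithelium. Its values were 11.85, 11.74 and 11.94 in full epithelial arrays 1, 2 and 3, and 11.74, 11.02 and 11.67 in plastic arrays 1, 2 and 3. The lowest full epithelial and the highest plastic value round to the same number, and plastic array 2 stood below the other 5. The difference was -0.37 (95% interval -0.83 to 0.10, adjusted p = 0.349, limma), and -0.14 without plastic array 2. *Slc2a3*, the high-affinity importer GLUT3, had values of 5.24, 4.89 and 5.12 in full epithelial and 4.63, 4.60 and 4.82 in plastic arrays. All of its plastic values were the lower ones, but all 6 values are below the background level, and its difference of -0.40 had an adjusted p of 0.120. The lactate exporter *Slc16a3* (MCT4) had values of 4.94, 5.58 and 6.22 in full epithelial and 6.28, 5.55 and 6.13 in plastic arrays, which overlap and differ by 0.41 (95% interval -0.40 to 1.21, adjusted p = 0.568). That difference was 0.08 without full epithelial array 1 and 0.73 without full epithelial array 3. The full epithelial mean of *Slc16a3*, 5.58, was below the background level. *Slc16a1*, which encodes the monocarboxylate transporter MCT1, differed by 0.24 (adjusted p = 0.537).

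In the upper part of glycolysis, the hexokinase step held the 1 member that fell. *Hk2* (chromosome 6) had values of 10.50, 10.11 and 9.73 in full epithelial and 9.27, 9.09 and 9.30 in plastic arrays. Every plastic array was below every full epithelial one, and the full epithelial arrays were spread more widely, with means of 10.11 ± 0.38 and 9.22 ± 0.11 (SD, n = 3 per group). *Hk2* fell by 0.89 on the log2 scale (95% interval -1.35 to -0.43), to 0.54 of the full epithelial signal, with an adjusted p of 0.0467 in limma. This call was lost in 5 of the 6 fits that left out 1 array, with adjusted p of 0.0807 without full epithelial array 1, 0.108 without 2, and 0.133, 0.0901 and 0.113 without plastic arrays 1, 2 and 3. It was kept without full epithelial array 3 (adjusted p = 0.0323). Its fold change in those 6 fits lay between -1.08 and -0.70. *Hk1*, the hexokinase of most tissues, differed by -0.15 (95% interval -0.51 to 0.22, adjusted p = 0.648).

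Phosphofructokinase commits sugar to glycolysis and is assembled from products of *Pfkl*, *Pfkm* and *Pfkp*. *Pfkp*, the platelet type, had values of 8.84, 8.62 and 9.06 in full epithelial and 9.31, 8.84 and 9.39 in plastic arrays. These overlap through plastic array 2, and the difference was 0.34 (95% interval -0.09 to 0.77, adjusted p = 0.349). *Pfkm*, the muscle type, had values of 5.92, 6.19 and 6.29 in full epithelial and 6.30, 6.87 and 6.77 in plastic arrays. Its groups were separated by the smallest of margins, and its difference of 0.52 had an adjusted p of 0.154. *Pfkl*, the liver type, differed by 0.26 (adjusted p = 0.734), with the widest scatter among the 3 in the plastic arrays. The aldolases, which split the sugar into triose phosphates, differed by 0.08 for *Aldoa* (95% interval -0.16 to 0.32) and by -0.21 for *Aldoc* (95% interval -0.89 to 0.47).

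From triose phosphate to pyruvate, no member passed the test, and several intervals were narrow. *Gapdh*, the dehydrogenase that oxidizes glyceraldehyde phosphate, had values of 12.70, 12.62 and 12.73 in full epithelial and 12.80, 12.64 and 12.80 in plastic arrays. The groups overlap, and the difference of 0.07 had a 95% interval from -0.15 to 0.28 (adjusted p = 0.740). *Ppia*, which the study used with *Gapdh* as a housekeeping gene, differed by -0.12 (95% interval -0.42 to 0.18). *Pkm*, pyruvate kinase of growing tissue, had values of 11.0, 10.99 and 11.18 against 11.08, 10.87 and 11.06 and a difference of -0.05 (95% interval -0.30 to 0.20, adjusted p = 0.834). The remaining enzymes here were *Tpi1*, triose phosphate isomerase, which differed by 0.31, and *Pgk1*, which makes ATP from bisphosphoglycerate and differed by -0.11, with adjusted p of 0.573 and 0.692.

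*Eno2* encodes the enolase best known from neurons and was the glycolytic enzyme with the largest difference. Its values were 4.59, 4.27 and 4.79 in full epithelial and 6.06, 4.98 and 6.77 in plastic arrays. Plastic arrays 1 and 3 were above the background level, whereas plastic array 2 stayed below it, close to full epithelial array 3. Groups were separate, but the difference of 1.39 (95% interval 0.39 to 2.4) did not pass the test (adjusted p = 0.114). Without plastic array 2 it was 1.87 with an adjusted p of 0.0170 in limma. Among the 6 fits that left out 1 array, *Eno2* passed in that 1 only. The highest adjusted p of these fits was 0.275, without plastic array 1. Because *Eno1* is not measured here, a probe set named *Eno1b*, a near-identical copy, is given in its place as uncertain, and it differed by -0.08 (95% interval -0.41 to 0.24, adjusted p = 0.780).

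For the fate of pyruvate, the *Ldha* subunit of lactate dehydrogenase had values of 11.53, 11.31 and 11.59 in full epithelial and 11.80, 11.49 and 11.90 in plastic arrays. Array 2 was the lowest of each group, plastic array 2 lay within the full epithelial range, and the difference of 0.25 (95% interval -0.08 to 0.58) had an adjusted p of 0.361. *Ldhb*, the subunit of oxidative tissues, differed by -0.06 (95% interval -0.26 to 0.15). Both *Ldhb* group means, 5.67 and 5.61, were below the background level, where a change can be understated. *Pdk1*, the kinase that shuts pyruvate out of the citric acid cycle, had values of 6.94, 7.04 and 6.91 against 7.33, 6.65 and 7.14. Its plastic values spread to both sides of the full epithelial ones, with a difference of 0.08 (95% interval -0.35 to 0.50, adjusted p = 0.855).

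*Pfkfb3* and *Pfkfb4* set the amount of the fructose bisphosphate that activates phosphofructokinase. By its brightest probe set *Pfkfb3* had values of 9.07, 9.20 and 8.68 in full epithelial and 8.30, 8.35 and 7.72 in plastic arrays. The groups did not overlap, and the difference of -0.86 (95% interval -1.36 to -0.36) missed the threshold with an adjusted p of 0.0640, but passed when only probe sets above background were tested (adjusted p = 0.0385). The other *Pfkfb3* probe set, dimmer at a mean of 6.72, read 7.69, 7.74 and 7.0 against 6.06, 6.08 and 5.72. It fell by 1.52 on the log2 scale with an adjusted p of 0.0154. *Pfkfb4* had values of 9.47, 8.75 and 9.57 in full epithelial and 8.24, 9.05 and 7.97 in plastic arrays, where array 2 was the lowest of the full epithelial and the highest of the plastic arrays. This crossing made the groups overlap, and its difference of -0.84 (95% interval -1.62 to -0.06) had an adjusted p of 0.201.

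HIF itself gave different readings by probe set. *Hif1a*, the oxygen-regulated subunit, had values of 9.17, 9.68 and 9.16 in full epithelial and 8.88, 9.0 and 9.03 in plastic arrays at its brightest probe set. All plastic values were the lower ones, but the difference of -0.37 (95% interval -0.74 to 0.01) did not pass (adjusted p = 0.247). Its other probe set read 5.38, 5.46 and 5.68 against 4.42, 4.51 and 4.73, all below the background level, and fell by 0.95 with an adjusted p of 0.0128. RNA level is only part of the regulation of *Hif1a*, whose protein is controlled by hydroxylation, and protein was not measured here. *Egln3*, an oxygen-sensing prolyl hydroxylase that HIF itself induces, had values of 9.34, 8.30 and 9.21 against 8.66, 7.71 and 8.32. Array 2 was the lowest in each group, the groups overlap, and the difference was -0.72 (95% interval -1.53 to 0.08, adjusted p = 0.284). *Egln1*, the main HIF hydroxylase, differed by 0.13 (adjusted p = 0.837).

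Among the effectors of the hypoxia response, the carbonic anhydrases of the cell surface, which hydrate carbon dioxide and so buffer pH, had differences of opposite sign. *Car12* (chromosome 9) had values of 6.91, 6.86 and 7.12 in full epithelial and 5.77, 5.81 and 5.64 in plastic arrays. The groups were far apart relative to their spread, at 6.97 ± 0.14 and 5.74 ± 0.09 (SD, n = 3 per group). *Car12* fell by 1.23 (95% interval -1.48 to -0.98), to 0.43 of the full epithelial signal, with an adjusted p of 0.00567. The plastic values lie at the background level of 5.71, with array 3 below it, so that the fall may be understated. It was the only member past the threshold with a log2 fold change of at least 1 in size, a rule that 0.831% of all genes met in the lower and 1.99% in the higher direction, and it passed in each of the 13 alternative fits. A second *Car12* probe set, with a mean of 4.03 below the background level, differed by -0.12 and did not pass.

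*Car9* (chromosome 4), the carbonic anhydrase widely used as a hypoxia marker, had values of 4.75, 4.59 and 5.44 in full epithelial and 6.81, 5.66 and 7.06 in plastic arrays. All 3 full epithelial values were below the background level, plastic arrays 1 and 3 were above it, and plastic array 2 was just below it. The groups did not overlap, and the difference of 1.58 (95% interval 0.64 to 2.52), or 2.99-fold, missed the threshold with an adjusted p of 0.0690. A gene at background in 1 group can have its change understated. Without plastic array 2 the difference was 2.01 with an adjusted p of 0.0168 in limma. Among the 6 fits that left out 1 array, *Car9* passed in that 1 only. The highest adjusted p of these fits was 0.205, without plastic array 1. *Car9* also passed when only probe sets above background were tested (adjusted p = 0.0331). Its mean over the 6 arrays, 5.72, cleared the level of 5.71 only through the plastic arrays, so this pass is no separate support. A single model term for the difference between *Car9* and *Car12* was not fitted.

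*Ddit4* (chromosome 10), also called REDD1, had values of 10.00, 10.10 and 10.12 in full epithelial and 9.04, 8.95 and 9.43 in plastic arrays. Full epithelial arrays were nearly equal, and every plastic array was below them, with means of 10.08 ± 0.07 and 9.14 ± 0.26 (SD, n = 3 per group). *Ddit4* fell by 0.94 (95% interval -1.27 to -0.60), to 0.52 of the full epithelial signal, with an adjusted p of 0.0175. The call was narrowly lost when any 1 full epithelial array was left out (adjusted p = 0.0528, 0.0505 and 0.0549 without arrays 1, 2 and 3) or plastic array 1 (0.0736), while the fold change stayed between -1.08 and -0.84.

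*Bnip3* and *Bnip3l* encode related receptors that mark mitochondria for mitophagy. *Bnip3l* had values of 11.85, 11.81 and 11.84 in full epithelial and 11.57, 11.54 and 11.24 in plastic arrays at its brightest probe set. The groups did not overlap, and the difference of -0.38 (95% interval -0.65 to -0.11) had an adjusted p of 0.107. Its other probe sets, with means of 10.44 and 9.21, fell by 1.27 and 1.44, with adjusted p of 0.0206 and 0.0298, and neither overlapped between groups. *Bnip3* had a difference of 0.67 (95% interval -0.26 to 1.60, adjusted p = 0.391), with values of 9.78, 8.71 and 9.71 against 10.38, 9.36 and 10.49. Array 2 of both groups was about 1 unit below its companions, so that the groups overlap.

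The remaining effectors showed no difference past the threshold. *Ndrg1*, a hypoxia-induced gene also tied to epithelial differentiation, had values of 11.37, 11.57 and 11.30 against 11.48, 11.12 and 11.29 and a difference of -0.12 (95% interval -0.42 to 0.18, adjusted p = 0.663). *Ankrd37*, a direct HIF target, differed by -0.14 (95% interval -1.23 to 0.96), and *Adm*, which encodes the vasodilator adrenomedullin, by 0.08 (95% interval -0.78 to 0.94). Their intervals allow differences of either sign.

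**Figure D3:**
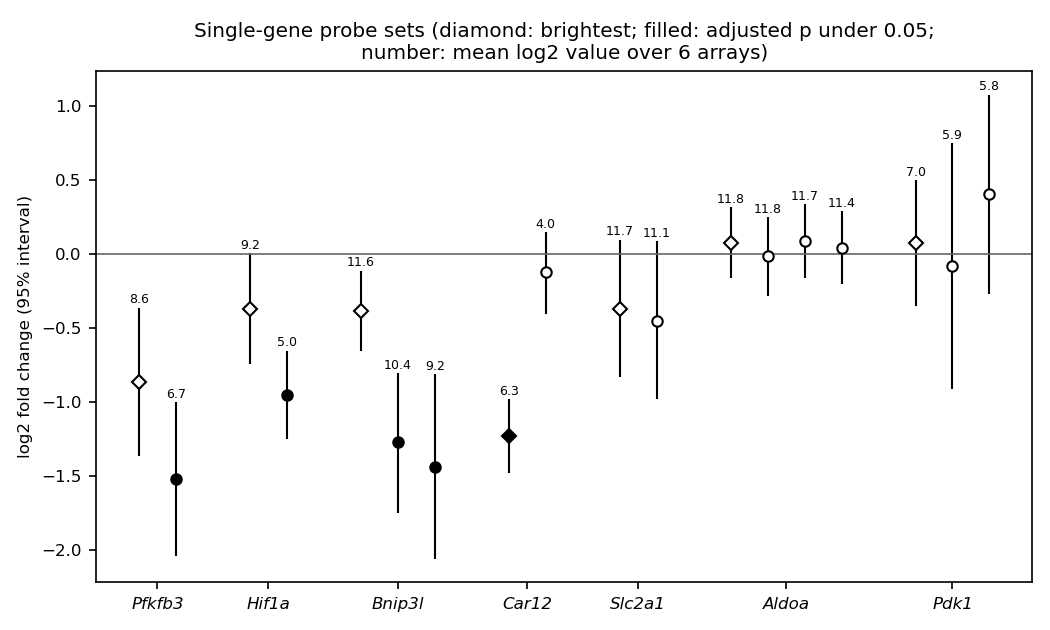
Log2 fold change, EpCAM+ plastic minus full epithelial, with its 95% interval, for every single-gene probe set of 7 genes with several probe sets, where the diamond is the brightest, filled symbols have an adjusted p under 0.05 and the number above is the mean log2 value over the 6 arrays. The dimmer probe sets of *Pfkfb3*, *Hif1a* and *Bnip3l* lie further below 0 than the brightest ones, whereas those of *Aldoa* all lie near 0.

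Counting a member as lower when any of its probe sets passed, a rule adopted after the values were seen, gave 6 members (*Hk2*, *Pfkfb3*, *Hif1a*, *Bnip3l*, *Ddit4* and *Car12*) and none higher. By that rule 2.43% of all genes were lower and 6.43% higher.

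Many members varied together within each group. Full epithelial array 2 held the lowest value of its group in 20 of the 32 members (62.5%, against 32.6% of all genes), and plastic array 2 in 25 of 32 (78.1%, against 39.0%). Both held at once for 17 members (53.1%), against 1574 of the 17097 genes (9.2%). The 17 include *Slc2a1*, *Pfkl*, *Pfkp*, *Aldoa*, *Tpi1*, *Gapdh*, *Pgk1*, *Eno2*, *Ldha*, *Egln3*, *Bnip3*, *Ankrd37* and *Car9*. This shared spread is described only, since nothing in the labels sets these arrays apart or ties equal replicate numbers to a shared origin. Plastic array 2 had the highest fibroblast marker sum of its group (1454, against 980 and 859 in plastic arrays 1 and 3). It read *Postn* at 7.62 (4.82 and 4.71 in plastic arrays 1 and 3) and *Dcn* at 6.84 (5.04 and 5.09). *Col3a1* was at 7.85 (6.03 and 4.70) and *Col1a1* at 8.05 (6.63 and 6.48). The brightest marker of this list, *Fbln1*, went the other way at 9.14 (9.39 and 9.23). Of the 10 fibroblast markers, 5 were below background in every array. Full epithelial array 2 had the lowest of its group (1127, against 1180 and 1255 in full epithelial arrays 1 and 3). Any link between these sums and the shared spread was not tested. The members that fell were not among the 17, and *Hk2*, *Ddit4* and *Car12* had their lowest full epithelial value in arrays 3, 1 and 2 and their lowest plastic value in arrays 2, 2 and 3. The median over members of the distance from the group mean was -0.10 in full epithelial array 2 and -0.21 in plastic array 2, and lay between 0.03 and 0.13 in the other 4 arrays. Without plastic array 2 the median change of the members was 0.07 instead of -0.05.

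**Figure D4:**
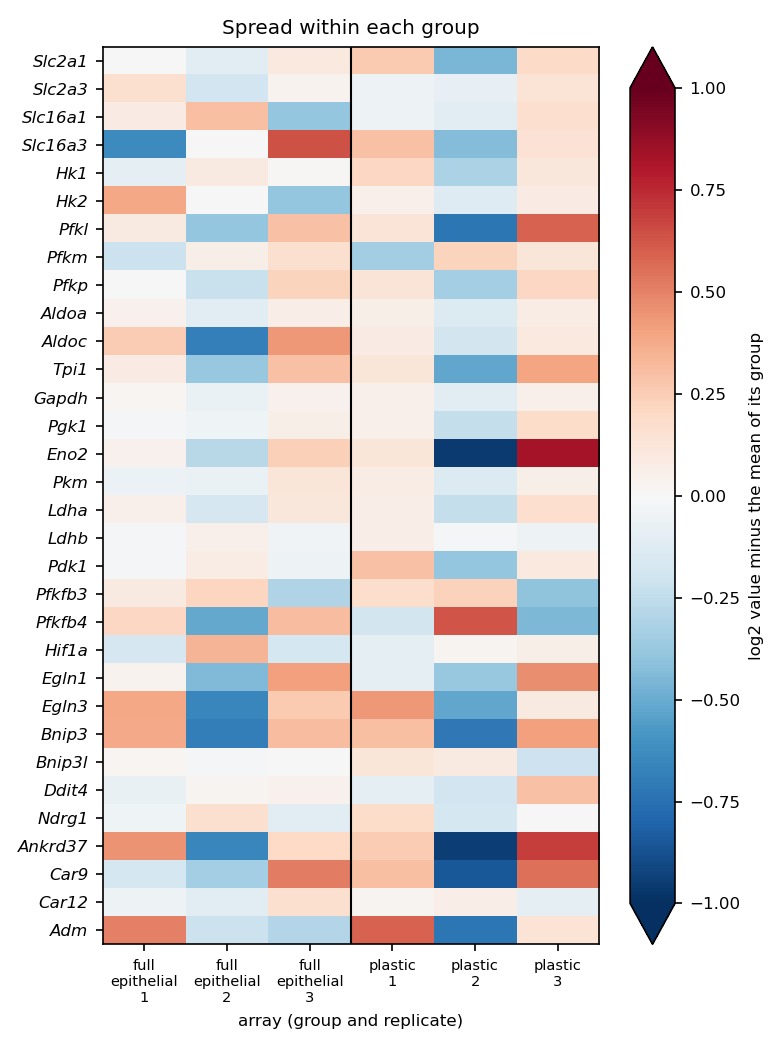
Log2 value of each gene in each array minus the mean of its group, from blue (below the group mean) to red (above), with full epithelial arrays left and plastic arrays right of the line. The column of plastic array 2 and, less so, that of full epithelial array 2 are mostly blue, with *Bnip3*, *Ankrd37* and *Egln3* low in both.

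Outside the members, 148 of 167 further genes of these pathways were measured, and 7 rose while none fell, with a median change of 0.04. These counts stand beside the 5.30% of all genes that were higher and the 1.91% that were lower. At an unadjusted p under 0.05, 27 were higher and 10 lower, against 14.9% and 9.01% of all genes. Of the other hypoxia-induced genes, 3 of 37 rose. *Plod2*, a lysyl hydroxylase that prepares collagen for cross-linking, read 6.13, 6.29 and 6.26 in full epithelial and 7.06, 7.04 and 7.31 in plastic arrays. It did not overlap between groups and rose by 0.91 (95% interval 0.65 to 1.16, adjusted p = 0.0106). *Edn1*, the vasoconstrictor endothelin, rose by 1.05 (adjusted p = 0.0330) and *Angptl4*, a secreted lipase inhibitor, by 0.52 (adjusted p = 0.0459). The full epithelial values of *Edn1* (5.02, 5.36 and 5.18) were all below the background level. *Vegfa*, the angiogenic factor that HIF induces, differed by 0.45 and did not pass (adjusted p = 0.208).

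Of the 20 measured regulators of energy sensing and glycolysis, 2 rose. They were *Myc*, the transcription factor that drives many glycolytic genes, by 0.70 (adjusted p = 0.0462), and *Rptor*, a subunit of the mTOR complex that DDIT4 restrains, by 0.89 (adjusted p = 0.0464). *Bpgm*, which makes the bisphosphoglycerate that loosens oxygen from hemoglobin, rose by 0.72 (adjusted p = 0.0379) and was the 1 of 17 other glycolytic enzymes to pass. *Pdp1*, the phosphatase that opposes the PDK kinases at pyruvate dehydrogenase, rose by 0.81 (adjusted p = 0.0319) and was the 1 of 11 genes of pyruvate entry to pass, although its values of 4.42 to 4.98 in full epithelial and 5.43 to 5.51 in plastic arrays are all below the background level. No gene passed among 19 other sugar and monocarboxylate transporters, 11 genes of the pentose phosphate and serine branches, 12 other HIF subunits and regulators, 11 other carbonic anhydrases and pH regulators, and 10 relatives and receptors of the effectors.

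Levels of marker genes of other cells are given beside these counts. The summed linear signal of 13 leukocyte markers was 1755 to 2608 in full epithelial and 1143 to 1650 in plastic arrays, with 9 of the 13 below background in every array and none past the test. Most of it came from *S100a9* (10.40, 9.64 and 10.94 against 9.71, 10.07 and 9.39) and *Cd68* (9.32, 9.41 and 8.50 against 8.57, 8.25 and 7.67). Both genes overlap between groups. The sum for 5 adipocyte markers was 2228 to 2929 against 259 to 939, mostly from *Fabp4* and *Lipe*. *Fabp4*, a fatty acid carrier, read 10.73, 10.63 and 10.44 against 8.05, 7.83 and 3.75 (adjusted p = 0.0820, limma). *Lipe* read 10.19, 9.33 and 9.58 against 8.62, 9.35 and 7.57, which overlap (adjusted p = 0.188, limma). *Adipoq*, the adipocyte hormone, was below background throughout. Of 6 erythroid and platelet markers the sum was 2559 to 3433 against 5068 to 5957, since the chemokine gene *Ppbp* rose by 0.89 (adjusted p = 0.0251), whereas *Hba-a1*, which encodes a globin chain, differed by 0.09. Among 10 genes that tissue dissociation induces, *Jun* fell by 0.81 (adjusted p = 0.0240), and the sums overlapped at 16821 to 18072 against 15951 to 18316. Of 6 Merkel and nerve markers, the adhesion gene *Ncam1* rose by 1.41 (adjusted p = 0.0488), and the other 5 were lower in plastic cells on average without passing, from -0.27 for *Chga* to -0.10 for *Piezo2*. The full epithelial values of *Ncam1* (4.87, 5.06 and 5.32) were all below the background level. Sums of the fibroblast markers (1127 to 1255 against 859 to 1454), endothelial and pericyte markers (252 to 294 against 221 to 274), muscle markers (263 to 337 against 265 to 281) and melanocyte markers (182 to 210 against 180 to 181) contained no gene past the test. The part of these cells or of dissociation in the changes of the members was not tested.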

How the data were processed

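RNA of sorted cells was amplified by Pico profiling and hybridized, 1 array per tumor, to Affymetrix mouse genome PM array strips. Per the labels, the authors normalized with RMA (version not given in the sources used here), which corrects background, normalizes probes by quantiles and summarizes probe sets, and they deposited log2 values. The 2 deposited tables were identical (largest difference 0), and all 6 arrays were used. Arrays have no read depth, so their number limits precision. Signals at background level can understate a change.

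Of 45141 probe sets, 28898 name 1 gene in the platform annotation, 551 name several and 15692 are not listed; 28689 symbols were updated through RefSeq (GRCm38.p6). Groups were compared with limma (3.58.1, R 4.3.3; lmFit, eBayes, 4 residual and 2.81 prior degrees of freedom), two-sided, adjusted by Benjamini-Hochberg over all probe sets, and tested on simulated data. The smallest two-sided exact permutation p for 3 against 3 is 0.1, so none is given. The members and gene lists were chosen with earlier results of these data known.

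Arrays took their groups from the labels. Values in every array are given for members with an unadjusted p under 0.05 and for 12 step-defining members, and for other lists, up to 4 genes that passed. *Vegfa*, *Bnip3*, *Fabp4*, *Lipe*, *S100a9*, *Cd68*, *Hba-a1*, *Chga*, *Piezo2*, *Adipoq*, *Postn*, *Dcn*, *Col3a1*, *Col1a1* and *Fbln1* were added after their values were seen. Alternatives covered normalization, a background filter, eBayes with trend and robust settings, array weights, replicate number as a block, other probe set rules and leaving out each array.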

Additional observations from a re-analysis of the deposited data

How the results depend on the processing

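No array could be given a read depth, and 3 arrays per group limit every test. As reported, no member was higher and 3 were lower. The count of higher members was 1 with only probe sets above background, 1 with trend and robust settings and 1 with array weights, each time *Car9*, and 0 to 2 when 1 array was left out, the 2 being *Car9* and *Eno2* without EpCAM+ plastic replicate 2. The background filter kept *Car9* only through its plastic arrays (mean 5.72 over the 6 arrays, against a level of 5.71). The count of lower members was 4 with only probe sets above background, *Pfkfb3* being added, 1 with a log2 fold change of at least 1, 6 with the mean of all probe sets of a gene and 6 with any single-gene probe set, the last chosen after seeing the data, and 1 to 2 when 1 array was left out. The count of other pathway genes that passed, 7 as reported, was 11 with array weights and 1 to 4 when 1 array was left out (1, 2 and 3 without full epithelial replicates 1, 2 and 3, and 1, 4 and 3 without plastic replicates 1, 2 and 3). *Pdk1*, at 0.08, was -0.05 with repeated quantile normalization and ran from -0.07 (without EpCAM+ plastic replicate 1) to 0.27 when 1 array was left out. *Pkm*, at -0.05, was 0.01 with repeated quantile normalization, and when 1 array was left out ran from -0.09 to 0.02, with 0.01 without full epithelial replicate 3 and 0.02 without plastic replicate 2. The cause was not tested.

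Over 20 named members and their alternatives, 233 values kept direction and side of the threshold, 9 passed newly, 11 no longer passed and 5 changed sign. With the mean of all probe sets, *Pfkfb3* (-1.19, adjusted p = 0.0247), *Hif1a* (-0.66, 0.0219) and *Bnip3l* (-1.03, 0.0252) passed. Equal replicate numbers do not pair tumors, since deviations correlated at -0.18, -0.37 and -0.01 and no array correlated best with its own number. With replicate number as a block, 483 instead of 2699 probe sets passed, with 1 lower member (*Car12*), 0 higher members and 0 pathway genes, and *Hk2* had an adjusted p of 0.10 and *Ddit4* of 0.0589.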
